A study of Mus musculus with 3 samples.

Results

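The 5 genes described here encode core transcription factors of mouse pluripotent cells, and the data are the Utf1 binding peaks listed within 20 kb of them. The genes are Pou5f1, Sox2, Nanog, Klf4 and Esrrb. They were chosen by name, not by a cut on their values, though with earlier results of these data known. Peaks were taken where they overlapped by at least 1 bp a window made of the gene body on the mouse build mm9 and 20 kb to either side. The gene bodies are Pou5f1 at chr17:35642977-35647722, Sox2 at chr3:34548927-34551382, Nanog at chr6:122657500-122664700, Klf4 at chr4:55540010-55545340 and Esrrb at chr12:87702000-87863000, and all peak positions are on mm9, counted from 1. The 5 windows held 88 of the 152608 peaks of biotin-tagged Utf1 and 0 of the 10506 peaks of endogenous Utf1.

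Pou5f1 encodes Oct4, a POU-domain factor that binds DNA together with the HMG-box factor Sox2 at paired motifs. Nanog is a homeodomain factor, Klf4 a zinc-finger factor that binds GC-rich motifs, and Esrrb an orphan nuclear receptor. These factors bind their own and each other's regulatory regions and hold embryonic stem cells in the undifferentiated state. Utf1 (undifferentiated embryonic cell transcription factor 1) binds chromatin in the same cells, and its own gene is a classic target of Oct4 and Sox2. The study precipitated the protein in a tagged and an endogenous form, and the loci were examined for how much of each precipitate was listed there.

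The study used chromatin immunoprecipitation with sequencing (ChIP-seq) in KH2 cells, an established mouse embryonic stem cell line, in standard serum medium. The 3 samples are 1 precipitation of biotin-tagged Utf1, 1 precipitation of endogenous Utf1 and 1 whole-cell extract without precipitation, whose values were not analysed here. The protocols describe streptavidin beads for the biotin precipitation, while both precipitations carry an antibody label for Utf1, Abcam ab24273. The labels describe growth on a layer of irradiated mouse embryonic fibroblasts, and they do not say which promoter drives the tagged protein. Peak lists carry no expression values, so the labelled cell type could not be checked against marker genes. Each group has a single library, so no difference could be checked against replicates and none was tested. Intervals on tag counts are exact Poisson intervals at 95% that cover counting error only.

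A biotin peak covered the start of each of the 5 gene bodies used here. The sequences before these starts are shown because a peak was listed over each start. They are the 250 bases before the annotated start from RefSeq on GRCm38.p6, a later build than mm9, and all 5 genes matched by symbol. Capitals mark matches to the motifs searched. Pou5f1 is on the plus strand at chr17:35505782-35506031, Sox2 on the plus strand at chr3:34649745-34649994, Nanog on the plus strand at chr6:122707239-122707488, Klf4 on the minus strand at chr4:55532476-55532725 and Esrrb on the plus strand at chr12:86360867-86361116, all on GRCm38.p6.
Pou5f1: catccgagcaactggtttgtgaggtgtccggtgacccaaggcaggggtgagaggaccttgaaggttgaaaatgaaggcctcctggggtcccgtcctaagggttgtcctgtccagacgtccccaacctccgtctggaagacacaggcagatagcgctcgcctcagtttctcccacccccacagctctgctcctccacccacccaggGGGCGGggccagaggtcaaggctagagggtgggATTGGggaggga
Sox2: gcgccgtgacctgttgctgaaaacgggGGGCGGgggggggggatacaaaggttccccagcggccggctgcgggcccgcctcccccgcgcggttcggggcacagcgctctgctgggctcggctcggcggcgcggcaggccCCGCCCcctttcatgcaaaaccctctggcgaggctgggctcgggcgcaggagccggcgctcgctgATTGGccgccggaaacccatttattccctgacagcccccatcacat
Nanog: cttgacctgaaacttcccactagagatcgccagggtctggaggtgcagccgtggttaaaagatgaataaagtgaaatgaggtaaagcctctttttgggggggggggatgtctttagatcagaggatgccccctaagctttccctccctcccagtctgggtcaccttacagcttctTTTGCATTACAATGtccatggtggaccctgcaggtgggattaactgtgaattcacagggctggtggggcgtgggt
Klf4: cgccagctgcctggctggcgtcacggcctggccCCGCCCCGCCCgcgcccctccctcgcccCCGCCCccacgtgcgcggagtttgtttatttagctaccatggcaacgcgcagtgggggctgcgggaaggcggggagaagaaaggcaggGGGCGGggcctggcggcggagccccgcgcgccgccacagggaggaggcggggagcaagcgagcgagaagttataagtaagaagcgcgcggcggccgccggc
Esrrb: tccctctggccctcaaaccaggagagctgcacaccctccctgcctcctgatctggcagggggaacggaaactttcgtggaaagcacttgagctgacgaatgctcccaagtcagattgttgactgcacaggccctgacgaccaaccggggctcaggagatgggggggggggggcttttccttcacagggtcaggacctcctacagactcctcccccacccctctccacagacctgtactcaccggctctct

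The motifs were searched on both strands, without regard to overlap. The composite Oct4-Sox2 motif was written as the Sox site CATTGT, any 1 base and the Oct site ATGCAAA, with these letters chosen knowing the Nanog element, and it matched the Nanog sequence with its first base at position -75, counted back from the annotated start. Of 32851 RefSeq promoter sequences, 0.00609% held it, namely both records of Nanog. The octamer ATGCAAAT, the element of POU factors, was in none of the 5 sequences and in 1.60% of all. The GC box GGGCGG, bound by Sp and Klf zinc-finger factors, matched 4 times before Klf4, where a pair shares 1 base, 2 times before Sox2 and 1 time before Pou5f1, and 32.7% of all promoter sequences held it. The CCAAT box, written CCAAT, matched 1 time each before Pou5f1 and Sox2, against 33.8% of all promoter sequences with a match. The TATA box TATAAA was in none of the 5 and in 12.4% of all. The number of CG dinucleotides was 32 before Klf4, 27 before Sox2, 8 before Pou5f1, 6 before Esrrb and 3 before Nanog, against a median of 6 over all promoter sequences (interquartile range 2 to 16).

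At the gene starts the 5 loci fell into a group of 3 with broad, tag-rich peaks and a pair with peaks of ordinary size. The peak over the start of Pou5f1, at chr17:35640143-35643989, was 3847 bp wide with 549 tags (504 to 597) and a listed fold enrichment of 6.87. The peak over the start of Sox2, at chr3:34546489-34550752, was 4264 bp wide with 401 tags (363 to 442) and a fold of 9.65. The peak over the start of Klf4, at chr4:55542120-55547373, was 5254 bp wide with 483 tags (441 to 528) and a fold of 7.52. By tags these 3 peaks stood high among the peaks of their own chromosomes, where 1.21%, 1.23% and 1.47% of peaks had at least as many as those of Pou5f1, Sox2 and Klf4.

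The start peaks of Nanog and Esrrb were much smaller. That of Nanog, at chr6:122656901-122658108, had 78 tags (61.7 to 97.3), a width of 1208 bp and a fold of 4.77, and 33.4% of chromosome 6 peaks had as many tags or more. That of Esrrb, at chr12:87701385-87702957, had 71 tags (55.5 to 89.6), a width of 1573 bp and a fold of 4.14, and 37.0% of chromosome 12 peaks had as many tags or more. The tag intervals of these 2 peaks overlap each other and lie below those of the other 3 start peaks. Tags are the authors' counts for whole peaks, and they grow with width: per kb of peak the 5 start peaks had 143 tags at Pou5f1, 94.0 at Sox2, 91.9 at Klf4, 64.6 at Nanog and 45.1 at Esrrb. The last value lies below the median of all chromosome 12 peaks, 46.3 tags per kb.

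**Figure D1:**
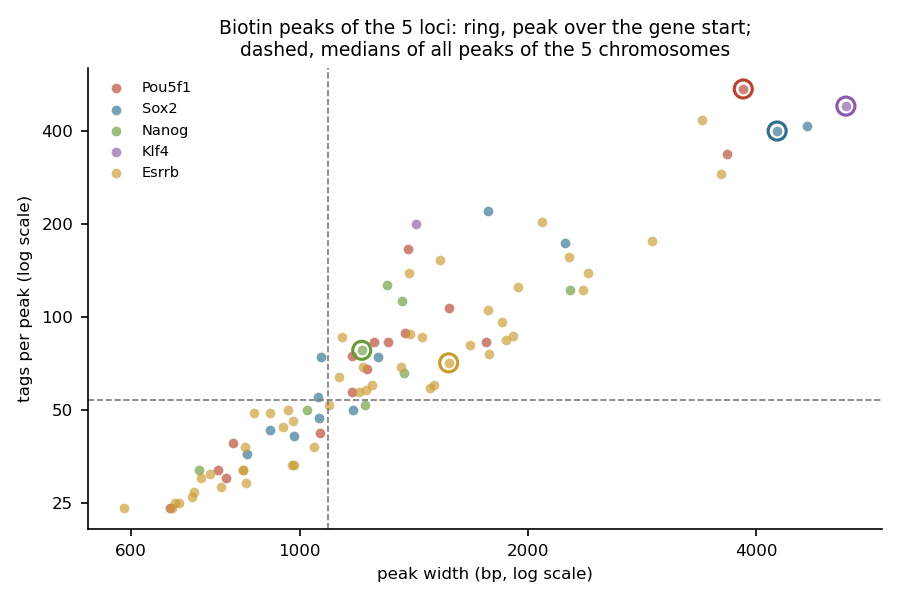
Width in bp and tags of the 88 biotin peaks of the 5 loci, both on log scales, 1 point per peak. Rings mark the peaks over the gene starts, and dashed lines the medians of all biotin peaks of the 5 chromosomes, 1089 bp and 54 tags. The start peaks of Pou5f1, Sox2 and Klf4 lie at the upper right, and those of Nanog and Esrrb near the middle.

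A biotin peak over a start is set here against the share of all bases inside biotin peaks, since starts of other genes were not placed on mm9. Peaks covered 5 of 5 starts, against 8.16% of the bases of the 5 chromosomes. How often peaks cover gene starts in general was not measured, so 5 of 5 cannot be read as more than is usual for starts. By chromosome that share was 11.5% for chromosome 17, 4.9% for chromosome 3, 6.86% for chromosome 6, 11.2% for chromosome 4 and 7.46% for chromosome 12. Within 2 kb to either side of the start, peaks covered 100% of the bases at Klf4, 99.1% at Pou5f1, 95.6% at Sox2, 65.0% at Esrrb and 60.1% at Nanog. The coordinates used for Nanog and Esrrb are rounded, and their gene bodies are 56 and 489 bp longer than in the RefSeq table. A difference in length does not bound the error of the start, because both ends can be shifted. Whether the exact starts of these 2 genes lie inside the peaks was therefore not settled.

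The summits lay on different sides of the starts. At Pou5f1 the summit was 2.06 kb upstream, and the peak reached from 2.83 kb upstream to 1.01 kb into the gene. As background, Pou5f1 has a proximal and a distal enhancer in its upstream region. At Sox2 the summit was 1.03 kb upstream and at Klf4 0.577 kb upstream. At Nanog the summit lay within the gene at 0.010 kb and at Esrrb at 0.453 kb, both positions no finer than the rounded starts.

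**Figure D2:**
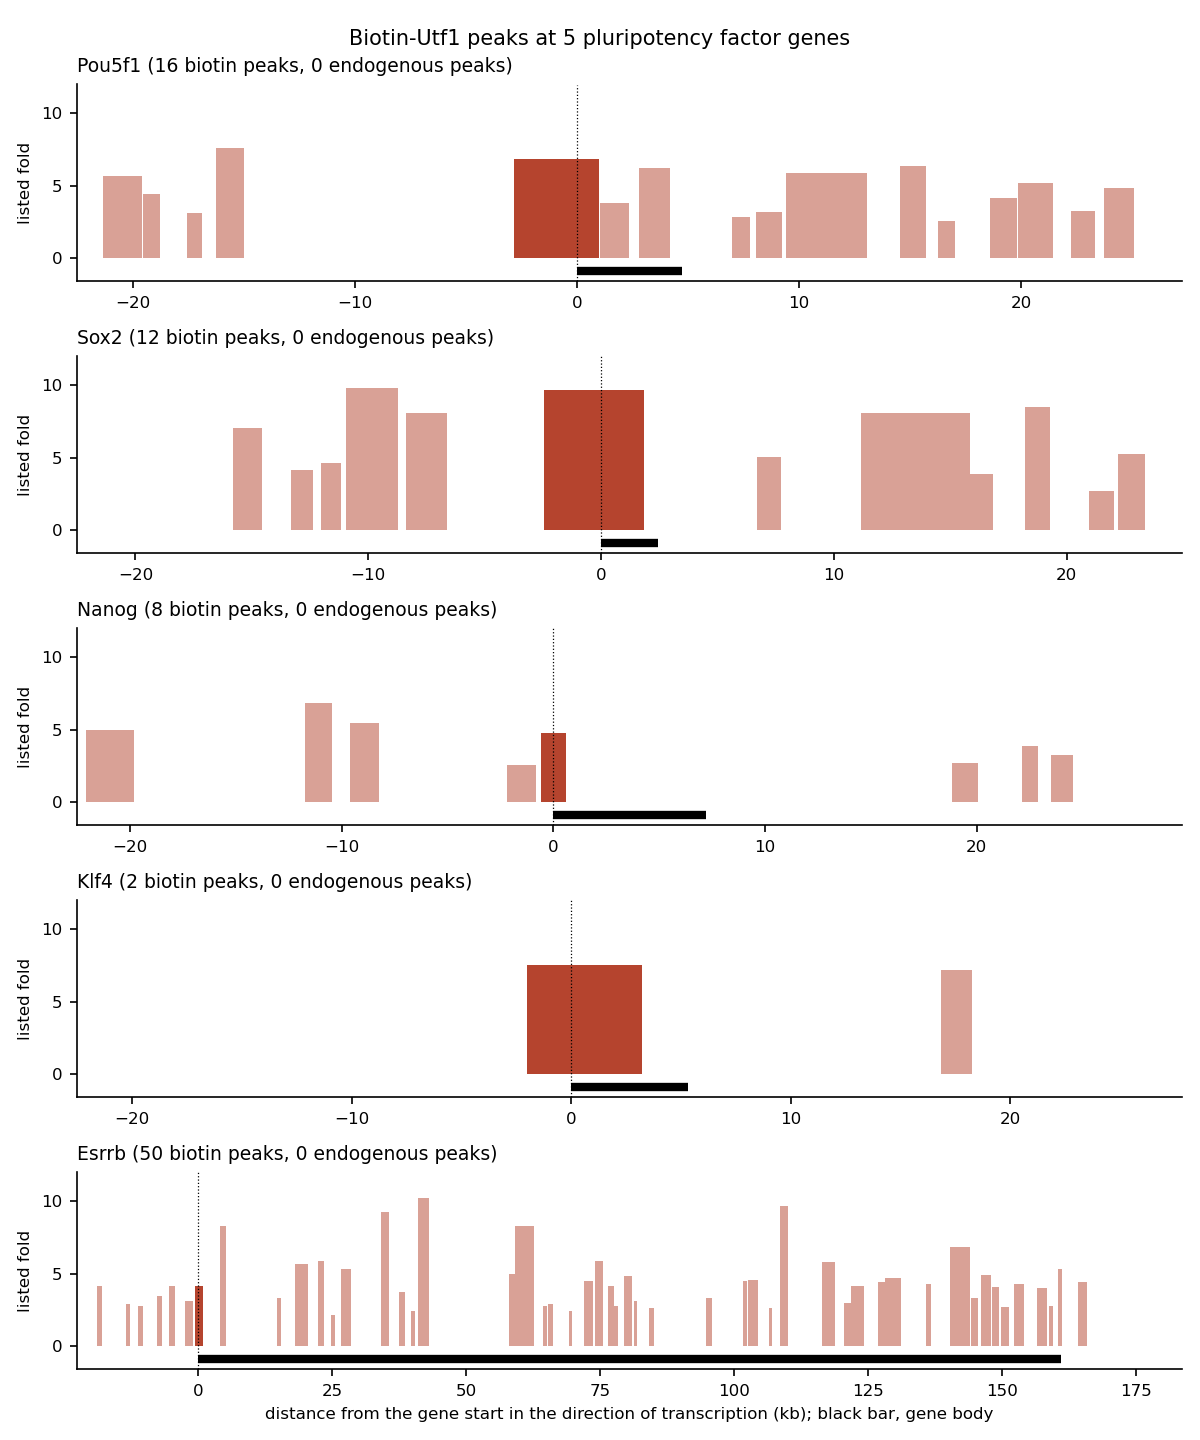
Biotin peaks at the 5 loci, drawn to scale by their distance in kb from the gene start in the direction of transcription, with the listed fold as height. Dark boxes are the peaks over the start, pale boxes the other peaks, and the black bar is the gene body. Peak numbers run from 2 at Klf4 to 50 in the longer Esrrb window, and no locus has an endogenous peak.

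Over whole windows, the loci differed in how much sequence biotin peaks covered. Coverage was 49.6% of the window at Pou5f1, 48.1% at Sox2, 34.4% at Esrrb, 17.9% at Nanog and 14.7% at Klf4. Together the 5 windows span 381 kb, of which peaks covered 127 kb, or 33.3%. The number of peaks was 16 at Pou5f1, 12 at Sox2, 8 at Nanog and 2 at Klf4, in windows of 42.5 to 47.2 kb, and 50 at Esrrb in a window of 201 kb. Per 100 kb this is 35.8 peaks at Pou5f1, 28.3 at Sox2, 24.9 at Esrrb, 16.9 at Nanog and 4.41 at Klf4.

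Each window was then set beside all non-overlapping windows of its own length along its chromosome. All 5 gene windows held a biotin peak, as did 69.2% of the 13079 other windows. In coverage, 3 of the 5 gene windows, those of Pou5f1, Sox2 and Esrrb, were in the top 10% of their chromosomes, against 10% of all windows by construction. These windows include gene-poor sequence, and gene windows were not separated from it.

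The Sox2 window stood furthest from its chromosome. Its coverage of 48.1% compares with a median of 2.28% over 3756 windows of chromosome 3, and 0.293% of them had as much. It held 37.5 tags per kb, against a median of 1.13. The Pou5f1 window had 49.6% coverage, against a median of 4.40% over 2127 windows of chromosome 17, and 4.37% of those had as much. The Esrrb window had 34.4%, against a median of 3.19% over 601 windows of chromosome 12, and 3.16% of those had as much.

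Nanog and Klf4 were outside the top 10%. The Nanog window had 17.9% coverage, against a median of 2.94% over 3165 windows of chromosome 6, where 10.8% had as much. The Klf4 window had 14.7%, against a median of 3.54% over 3430 windows of chromosome 4, where 23.3% had as much. By tags per kb of covered sequence the order was different: 102 at Klf4, 80.1 at Pou5f1, 78.0 at Sox2, 62.7 at Nanog and 58.7 at Esrrb. At Klf4, 8.22% of the chromosome 4 windows with a peak had as many, while at Esrrb 65.8% of those of chromosome 12 did.

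**Figure D3:**
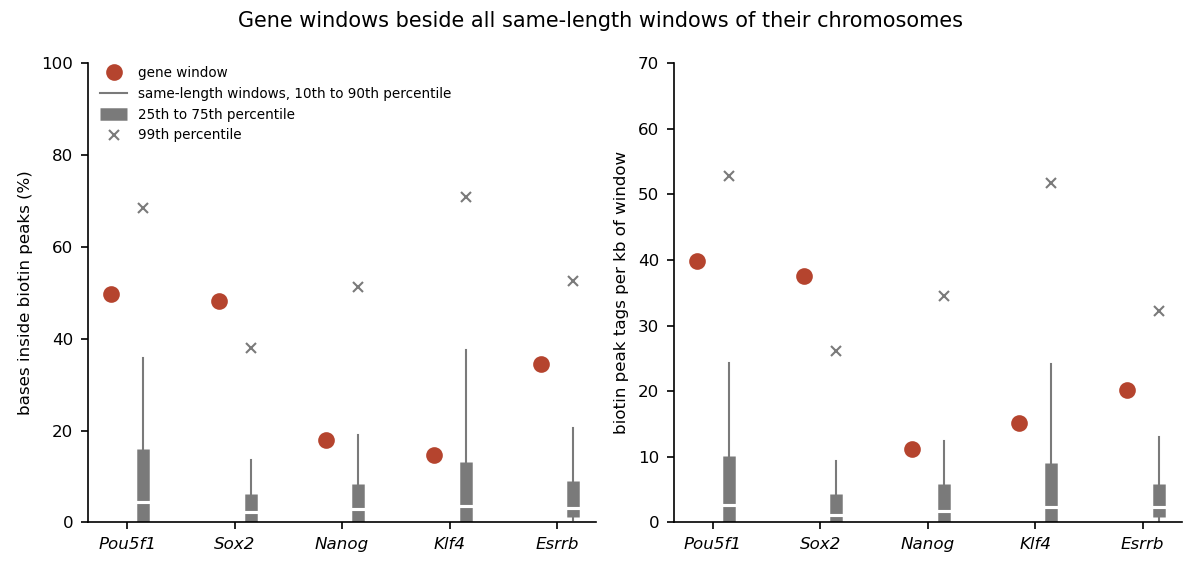
Share of bases inside biotin peaks in percent (left) and biotin peak tags per kb of window (right) for the 5 gene windows, as points, beside all windows of the same length on the same chromosome. Grey boxes span the 25th to 75th percentile, thin lines the 10th to 90th, white ticks mark the median and crosses the 99th percentile. The Sox2 window lies above the 99th percentile in both measures, and those of Nanog and Klf4 lie below the 90th.

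Compared only with windows up to 5 Mb away, the picture changed for Nanog and Klf4. Of 236 such windows none reached Sox2, whose neighbours went up to 30.5% coverage, and of 50 none reached Esrrb, whose neighbours went up to 33.8%. At Pou5f1, 4.48% of 223 windows reached the gene's coverage. At Nanog 26.9% of 212 did, with a median of 10.3% among these neighbours. At Klf4 7.69% of 221 did, with a median of 3.55%.

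Pooled over the 5 loci, single peaks were only slightly larger than the other peaks of these chromosomes, and 50 of the 88 were from Esrrb. Over the 88 peaks, the median width was 1221.5 bp (interquartile range 941 to 1701), against 1089 bp (855 to 1613) for all 39583 biotin peaks of the 5 chromosomes. The median tag count was 67 (40.5 to 108.5), against 54 (34 to 109), and the median fold 4.41 (3.21 to 5.81), against 4.24 (3.30 to 6.04). All these interquartile ranges overlap over most of their length. By locus, the median fold was 6.16 at Sox2 and 7.355 over the 2 peaks of Klf4, against 4.31 and 4.27 on their chromosomes. It was 4.62 at Pou5f1, 4.315 at Nanog and 4.14 at Esrrb, against 4.28, 4.14 and 4.14. The 2 Klf4 peaks had median values of 3338.5 bp and 342 tags, against 1146 bp and 58 tags on chromosome 4. A fold of 10 or more was listed for 1 of the 88 peaks and for 4.87% of all peaks of the 5 chromosomes. At Pou5f1, Sox2 and Esrrb high coverage came with many peaks per window.

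At Pou5f1, peaks covered most of the gene body and of the downstream flank, and less of the upstream flank. They covered 29.9% of the upstream 20 kb, 78.2% of the gene body and 62.6% of the downstream 20 kb. The start peak carried 29.5% of the 1864 tags of the locus. Within the gene a peak at chr17:35645758-35647145 had 166 tags (142 to 193) and a fold of 6.21. Further down, chr17:35652387-35656051, with its summit 11.0 kb from the start, had 337 tags (302 to 375) and a fold of 5.91. The RefSeq table of GRCm38.p6 places Tcf19 and Cchcr1 next downstream of Pou5f1. The largest fold of the locus, 7.64, was at chr17:35626744-35627998, 15.6 kb upstream, with only 83 tags (66.1 to 103), and between it and the start peak there was a stretch of 12.1 kb without a peak. The remaining 12 peaks had 24 to 107 tags.

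At Sox2, peaks lay on both sides of this short gene, with folds among the highest of the 5 loci. They covered 47.4% of the upstream 20 kb, 74.3% of the body and 45.5% of the downstream 20 kb. The largest fold, 9.83, was at chr3:34537956-34540196, with 174 tags (149 to 202) and its summit 9.17 kb upstream. Beside it chr3:34540538-34542307 had 221 tags (193 to 252) and a fold of 8.10. The most tags, 416 (377 to 458), were in a peak 4672 bp wide at chr3:34560084-34564755, with its summit 14.3 kb downstream of the start and a fold of 8.08. Its interval overlaps that of the start peak, with 401 tags, so the order of these 2 peaks is within counting error. In all, 5 of 12 peaks had a fold of 8 or more, against 12.3% of chromosome 3 peaks. The RefSeq table lists Sox2ot, a long non-coding RNA gene, as overlapping Sox2. The remaining 8 peaks had 36 to 74 tags.

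At Nanog, the strongest peak was upstream and the gene body was almost free of peaks. Coverage was 24.2% of the upstream 20 kb, 8.46% of the body and 14.9% of the downstream 20 kb, so Nanog was the only 1 of the 5 genes with a body below its upstream flank. The peak with both the most tags and the largest fold was chr6:122645741-122647046, with 127 tags (106 to 151) and a fold of 6.87, its summit 11.4 kb upstream. Next to it a peak with its summit 8.60 kb upstream had 113 tags (93.1 to 136) and a fold of 5.48. The intervals of these 2 peaks overlap. From the start peak downstream, 18.2 kb had no peak, from 0.608 to 18.8 kb past the start, and this gap holds most of the gene. The other 5 peaks of the locus beside the start peak had 32 to 122 tags and folds of 2.53 to 4.99. Of these, 3 lay downstream, where Slc2a3 is the next protein-coding gene in the RefSeq table.

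At Klf4, 2 peaks were listed, and both were tag-dense. The 3430 same-length windows of chromosome 4 had a median of 1 peak, and 48.7% of them had 2 or more. The start peak held 70.6% of the 684 tags of the locus and reached from 2.03 kb upstream to 3.22 kb into the gene. The other peak, chr4:55527062-55528484, had 201 tags (174 to 231) in 1423 bp, which is 141 tags per kb, with a fold of 7.19 and its summit 17.5 kb downstream of the start. Both folds were above the upper quartile of chromosome 4 peaks, 6.04. Between the 2 peaks 13.6 kb were free of peaks, and most of the upstream 20 kb was too, with 10.2% covered, against 60.4% of the body.

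At Esrrb, a gene of 161 kb, peaks were spread along the body with gaps between them, and the tag-richest lay far inside the gene. The longest stretch without a peak was 14.9 kb, at chr12:87745094-87760039 within the body. Of 50 summits, 43 were in the body, 6 upstream and 1 downstream, and peaks covered 37.6% of the body, 33.9% of the upstream 20 kb and 9.40% of the downstream 20 kb. The peak with the most tags, chr12:87761213-87764610, had 436 (396 to 479) and a fold of 8.31 over 3398 bp, with its summit 60.7 kb into the gene. The start peak, with 71 tags, ranked 20 of 50 by tags and 24 by fold. The largest fold, 10.2, was at chr12:87743009-87745093, 41.9 kb into the gene, with 203 tags (176 to 233). Folds of 8 or more were listed for 5 of the 50 peaks, against 12.2% of chromosome 12 peaks. At the other end of the range, 20 of the 50 had fewer than 50 tags. On chromosome 12, 52.0% of all peaks had 50 tags or more, so such small peaks were no more frequent at Esrrb than on its chromosome. The median of the locus was 59.5 tags, against 51 for all chromosome 12 peaks.

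RefSeq lists a second Esrrb start, and its distance from the first is close to that of the tag-richest peak. On GRCm38.p6 the 2 starts are 60.5 kb apart, while on mm9 that peak spans 59.2 to 62.6 kb from the start used here. Positions were not carried from one build to the other, so the second start was not placed on mm9, and the likeness is one of distances. The 250 bases before it, at chr12:86421394-86421643 on the plus strand of GRCm38.p6, are shown for that reason, chosen after the peak values were seen.
Esrrb second start: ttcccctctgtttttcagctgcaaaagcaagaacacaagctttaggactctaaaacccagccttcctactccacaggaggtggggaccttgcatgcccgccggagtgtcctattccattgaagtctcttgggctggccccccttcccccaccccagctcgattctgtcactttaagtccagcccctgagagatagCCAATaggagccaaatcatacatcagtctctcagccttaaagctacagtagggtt
This sequence held 3 CG dinucleotides and 1 CCAAT box, at position -55, and no match to the other 4 motifs. Second starts are also listed for Pou5f1 and Nanog, 2.775 and 0.076 kb from the first, and were not placed on mm9 either. By the same comparison of distances, that of Pou5f1 falls between 2 peaks, 1 ending at 2.358 kb and 1 beginning at 2.781 kb. That of Nanog falls within the start peak, which reaches to 0.608 kb.

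Beyond the windows, coverage in 10 kb bins to 200 kb on either side of the start showed the setting of each gene. Median coverage of the 40 bins was 32.1% around Pou5f1 and 25.7% around Esrrb, where only bins downstream of the start lie mostly inside the gene. It was 15.1% around Nanog, 9.61% around Sox2 and 1.22% around Klf4, where 20 of 40 bins had no biotin peak. The share of empty 10 kb bins over whole chromosomes was not computed, so this count cannot be read as unusual for chromosome 4. As background, distal enhancers of Sox2 and Klf4 are known well downstream of these genes. At Sox2 the bin from 100 to 110 kb downstream had 58.6% coverage, and at Klf4 the bins from 50 to 60 and from 60 to 70 kb had 43.1% and 41.2%, the 2 highest of the 40 at that gene. The highest bin at Sox2 was the one from 10 to 20 kb, with 67.2%. High bins far from the start were also present at the other 3 genes. The highest were 85.3% at 200 to 190 kb upstream of Esrrb, 74.0% at 190 to 200 kb downstream of Pou5f1 and 47.6% at 110 to 120 kb downstream of Nanog. The distant Sox2 and Klf4 bins were picked after their values were seen, and known enhancers were not placed on them.

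**Figure D4:**
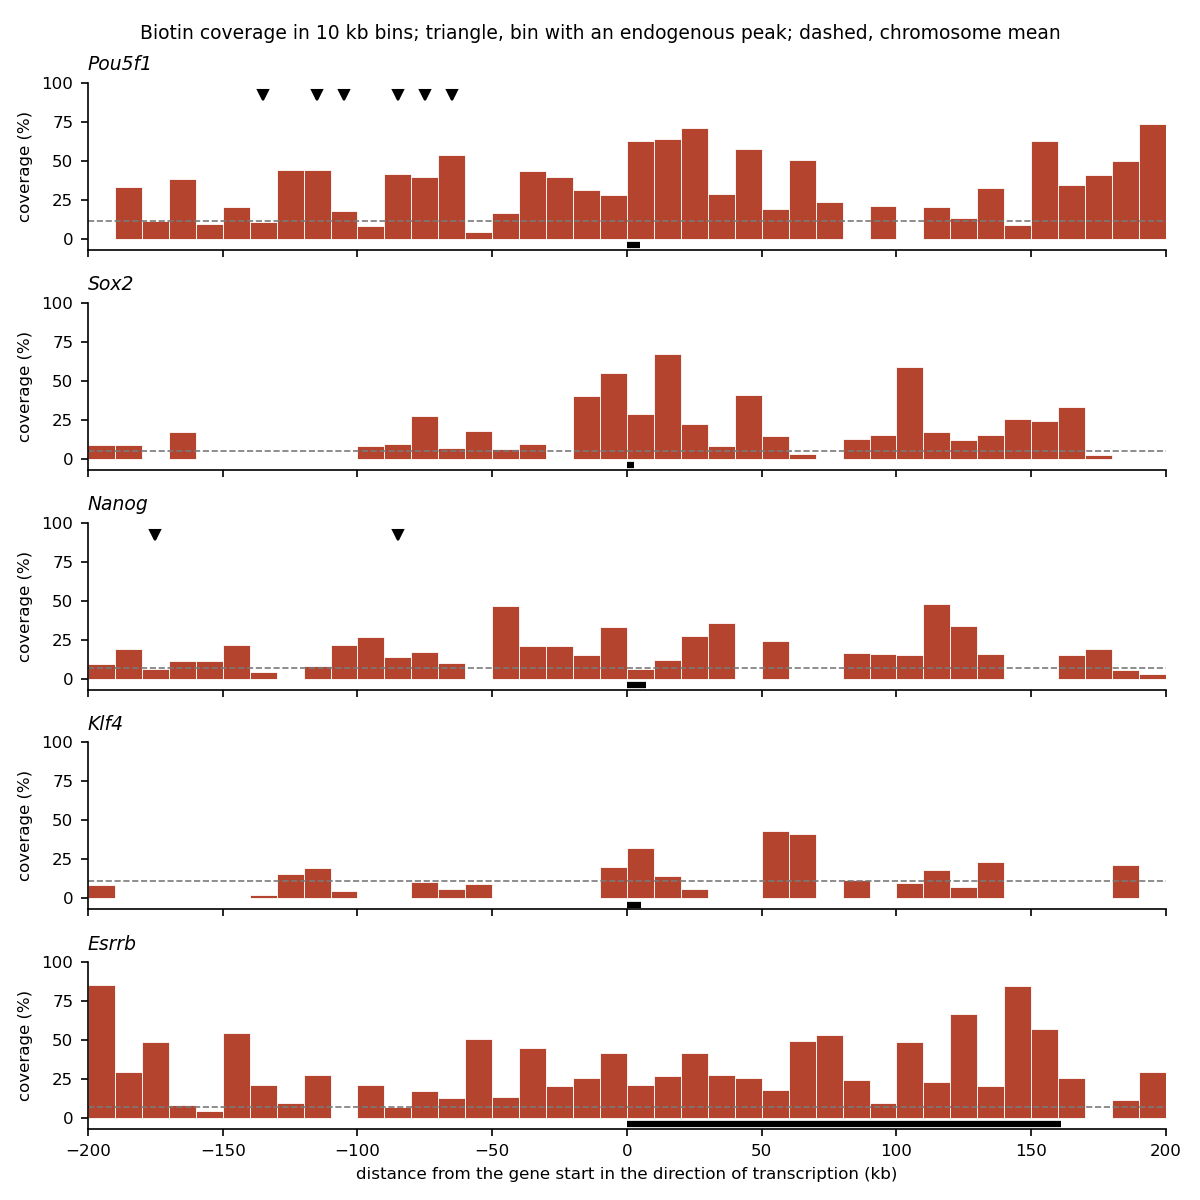
Share of bases inside biotin peaks in 10 kb bins, in percent, from 200 kb upstream to 200 kb downstream of each gene start, in the direction of transcription. Dashed lines give the mean of the chromosome, black bars the gene body and triangles the bins with an endogenous peak, which occur upstream of Pou5f1 and Nanog only. At Klf4 20 of the 40 bins have no biotin peak, against 3 at Pou5f1 and 2 at Esrrb. The share of empty bins over whole chromosomes was not computed.

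No endogenous peak was listed at any of the 5 loci, so no biotin peak there had an endogenous partner. This count of 0 of 5 has to be read against how few windows hold such a peak: 14.1% of those on chromosome 17, 16.3% on chromosome 3, 17.3% on chromosome 6 and 15.6% on chromosome 4, and 46.1% of the longer windows on chromosome 12. The endogenous list begins at 13 tags per peak, so Utf1 below that level would not appear in it, and absence of the endogenous protein cannot be read from it.

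The nearest endogenous peaks were all close to the lower limit of 13 tags. From the edge of the window the distance was 48.9 kb at Pou5f1, 67.3 kb at Nanog, 232 kb at Esrrb, 261 kb at Sox2 and 463 kb at Klf4. The medians over same-length windows were 94.0, 75.6, 18.8, 73.6 and 86.6 kb in the same order of genes. Pou5f1 and Nanog were thus nearer to an endogenous peak than the median window of their chromosomes, and Esrrb, Sox2 and Klf4 further away. As far away or further were 17.1% of windows for Esrrb, 15.9% for Sox2 and 9.50% for Klf4. These 5 nearest peaks had 13 to 15 tags and a listed false discovery rate of 1.24 to 6.34%, and none of them overlapped a biotin peak. Biotin peaks covered 8.16% of the bases of the 5 chromosomes. The usual tag count of endogenous peaks, and how often they overlap a biotin peak in general, were not computed. Low tags and missing overlap can therefore not be read as traits of these loci.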

How the data were processed

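Each precipitation has 1 deposited peak list (2 in all). Per the submitters' processing notes the build is mm9 and BWA 0.5.7 and R 2.15.2 were used, in roles not stated. The caller of the peaks and its control are likewise not given in the sources. Per the file headers, tags are counts of reads per peak, fold enrichment is a linear ratio, the false discovery rate is a percent, and peak strength is a score, 10 times the −log10 of a p-value. The deposited width and summit are in bp. Lists were called per library, not on pooled samples, and all values per peak are the authors'. Library depth is unknown, since the lists hold only tags inside peaks, 14128799 (biotin) and 276084 (endogenous). They begin at 22 and 13 tags.

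Coverage is the share of bases inside peaks. Tags of a peak were spread evenly over its width. Windows were tiled from the chromosome start to the largest listed end, leaving out those that touch the gene window. The procedure was tested on simulated peaks. Gene strands and sequences came from RefSeq tables of GRCm38.p6, and no position was moved between builds. Every peak of the 5 genes was counted, and for each gene the peaks with the most tags, the largest fold and nearest the start were named. A few others, such as second-ranked peaks, were named after their values were seen. Members and settings were chosen with earlier results of these data known. Calculations used numpy 2.4.6, scipy 1.17.1, pandas 2.3.3 and matplotlib 3.10.9 in Python 3.11.15.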

Additional observations from a re-analysis of the deposited data

How the results depend on the processing

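For 8 results, 33 alternative values were computed: 24 lay within an interval around the reported value or within 1.5 times a count, and 9 moved. The interval was Poisson for tags and came from the ordered widths for the median width. For coverage it treated every base as an independent draw. Bases of 1 peak are not independent, so that interval is too narrow, and a coverage value outside it is not thereby shown to differ. Coverage of the 5 loci, 33.3%, was 34.9% with a flank of 10 kb, 28.0% with 50 kb and 24.5% with the stronger 50% of biotin peaks by fold. Tags per kb, 22.7, became 24.3, 18.9 and 18.9 under the same 3 settings. The stronger 50% also gave 54 in place of 88 peaks, a median width of 1411.5 bp in place of 1221.5 bp, and 68.1% in place of 84.0% mean coverage within 2 kb of the starts; fewer peaks are listed there by construction. The cause of the other moves was not tested. Loci in the top 10% of windows numbered 3 or 4 of 5 throughout. Endogenous peaks were 0 in all alternatives run, but none of these could have given another value. The endogenous peak nearest to any of the 5 gene bodies was 68.9 kb away, at Pou5f1, beyond the longest flank of 50 kb. The other endogenous settings only narrowed an empty set or searched for partners of its members. These fixed values are among the 24 and say nothing about robustness. The share of windows at or above a locus ran, over the reported value and 8 settings that were applied to this share after seeing the data, from 3.29 to 6.00% for Pou5f1, 0 to 1.67% for Sox2, 7.11 to 26.9% for Nanog, 7.69 to 32.9% for Klf4 and 0 to 4.49% for Esrrb. No paired analysis was possible because each group has 1 library. For the same reason no replicate could be left out. Unknown depth limits what the absence of endogenous peaks can show.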
